A study of Mus musculus with 8 samples.

Results

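The 27 genes described here are a module of cholesterol synthesis and its control by SREBP transcription factors, out of 45777 genes in the deposited count table, and all 27 were found there by symbol. By role, 8 encode enzymes of the early mevalonate and isoprenoid steps, 11 act from squalene to cholesterol, 5 control SREBP activity and 3 handle sterol uptake, transport or storage. They were measured by RNA sequencing of mouse colonic organoids, which are epithelial cultures grown in Matrigel from crypts of the colon, in a study of IL-22, Paneth cell metaplasia and wound healing through the secreted lectin REG3A. The KO libraries (5, 6, 7 and 8) come from Reg3aΔIEC organoids, in which Villin-Cre, active in the intestinal epithelium, recombined a Reg3a allele with loxP sites around exons 2 to 4. The WT libraries (13, 14, 15 and 16) come from Reg3afl/fl organoids, which carry the same loxP allele, and for which the labels name no Cre, so that Cre and the Reg3a deletion cannot be told apart. Both genotypes came from male mice aged 9 weeks, and organoids were collected 3 days after passage, at no more than 15 passages, with no treatment added. The labels contradict themselves on replication: they give 1 mouse per genotype in 4 wells, and also 3 mice per genotype. The p-values below therefore measure the spread between libraries, which may be technical.

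Cholesterol is built from acetyl-CoA by way of mevalonate, farnesyl diphosphate, squalene and lanosterol, and farnesyl diphosphate is also the branch point for isoprenoids that anchor proteins in membranes. When sterols in the endoplasmic reticulum are low, SCAP carries SREBPs to the Golgi, where proteases release the active factor, which switches on most genes of the pathway. When sterols are high, INSIG proteins hold SCAP and SREBP in the endoplasmic reticulum. INSIG1 is itself an SREBP target, so its transcript is widely used as a readout of SREBP activity. In the intestine the pathway supplies dividing crypt cells with membrane sterol alongside cholesterol taken up from the diet.

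SREBPs bind promoters next to the factors NF-Y, which recognises the letters CCAAT, and SP1, which recognises the GC box GGGCGG. RefSeq promoter windows (GRCm38.p6) were at hand for 23 of the 27 genes, and the 250 bases before each annotated start were searched on both strands for these letters and for the sterol regulatory element letters TCACNCCAC. None of the 3 motifs lies inside another, though neighbouring matches may share end bases. CCAAT was present for 21 of 23 genes (91.3%), against 37.5% of all 27025 genes in the promoter table and 40.4% of the 11074 tested genes in it. GGGCGG was present for 20 of 23 (87.0%), against 35.4% of all genes and 61.3% of tested genes. The sterol regulatory element letters were present for 1 gene, Hmgcs1 (4.35%), against 1.22% of all genes and 1.28% of tested genes. A match is a run of letters and not a shown binding site, and a window without one says nothing of the factor. The windows printed here are those of Insig1, Acat2 and Cyp51, which were lower in KO, of Hsd17b7 and Scap, which were higher in KO, and of Hmgcs1 for its element. Each reads 5′ to 3′ on the gene's own strand, capitals mark the 3 motifs (ATTGG and CCGCCC are CCAAT and GGGCGG read on the other strand), and for Hsd17b7 only the bases outside the annotated gene are shown.
Insig1, chr5:28071162-28071411, plus strand: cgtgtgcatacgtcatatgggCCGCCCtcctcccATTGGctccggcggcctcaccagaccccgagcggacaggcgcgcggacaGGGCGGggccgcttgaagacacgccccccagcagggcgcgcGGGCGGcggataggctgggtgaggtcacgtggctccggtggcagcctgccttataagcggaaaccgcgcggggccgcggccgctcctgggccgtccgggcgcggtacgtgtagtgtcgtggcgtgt
Acat2, chr17:12960726-12960975, minus strand: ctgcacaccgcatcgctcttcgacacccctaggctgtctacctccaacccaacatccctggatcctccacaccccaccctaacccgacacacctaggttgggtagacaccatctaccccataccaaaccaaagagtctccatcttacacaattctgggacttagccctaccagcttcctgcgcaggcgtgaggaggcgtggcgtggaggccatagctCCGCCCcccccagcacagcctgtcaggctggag
Cyp51, chr5:4104698-4104947, minus strand: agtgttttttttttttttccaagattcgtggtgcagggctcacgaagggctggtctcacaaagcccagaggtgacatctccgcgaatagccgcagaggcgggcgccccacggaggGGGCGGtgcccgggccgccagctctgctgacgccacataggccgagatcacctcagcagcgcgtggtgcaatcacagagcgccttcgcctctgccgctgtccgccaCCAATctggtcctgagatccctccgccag
Hsd17b7, chr1:169969243-169969455, minus strand: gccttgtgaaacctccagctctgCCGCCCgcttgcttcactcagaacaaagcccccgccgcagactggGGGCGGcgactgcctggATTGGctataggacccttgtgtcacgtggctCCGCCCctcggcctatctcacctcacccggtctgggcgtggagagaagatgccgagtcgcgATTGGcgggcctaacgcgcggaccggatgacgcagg
Scap, chr9:110333038-110333287, plus strand: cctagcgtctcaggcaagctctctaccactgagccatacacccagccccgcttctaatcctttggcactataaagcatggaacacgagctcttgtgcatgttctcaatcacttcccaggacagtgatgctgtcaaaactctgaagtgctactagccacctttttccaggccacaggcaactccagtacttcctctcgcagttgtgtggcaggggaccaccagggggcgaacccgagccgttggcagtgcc
Hmgcs1, chr13:119690101-119690350, plus strand: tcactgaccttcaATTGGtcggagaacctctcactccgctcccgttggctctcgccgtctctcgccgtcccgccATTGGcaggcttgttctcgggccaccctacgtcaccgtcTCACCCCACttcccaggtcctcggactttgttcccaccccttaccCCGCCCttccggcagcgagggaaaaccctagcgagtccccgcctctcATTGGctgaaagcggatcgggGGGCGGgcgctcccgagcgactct
Insig1 held 1 CCAAT and 3 GGGCGG, and Hmgcs1 held 3 CCAAT, 2 GGGCGG and 1 sterol regulatory element. The printed windows of Acat2 and Scap held no CCAAT. Another window of Scap, chr9:110333106-110333355, is not printed, and it held 1 GGGCGG and no CCAAT. The windows of Pmvk, which was also lower in KO, are not printed either. That at chr3:89454291-89454540 held 1 CCAAT and no GGGCGG, and that at chr3:89459321-89459570 held none of the motifs.

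Library totals ran from 37182098 to 49256171 counts. Of the 45777 genes, 14945 passed the low-count filter and were tested with edgeR's quasi-likelihood test, and 1140 were higher and 1234 lower in KO at an adjusted p under 0.05. Reg3a itself had 0 counts in all 8 libraries, so it does not check the genotype labels. The 10 epithelial markers summed to between 11340 and 12000 CPM (counts scaled to the library total, with TMM factors) in KO and between 11050 and 11890 CPM in WT, with 2 of them higher (Cdx2, log2 fold change 0.33, and Vil1, 0.25; edgeR adjusted p = 0.00024 and 0.00208) and 1 lower (Cldn3, -0.21; 0.0382). Of the 10 fibroblast markers, 3 were tested and none passed, and Col1a2, Dcn, Lum and Thy1 had no count in any library. The fibroblast list summed to 5.90 to 7.55 CPM in KO organoids and 4.38 to 7.04 CPM in WT. The immune list, with 3 of 10 markers tested and 1 lower, summed to 29.6 to 44.97 CPM in KO organoids and 31.56 to 43.95 CPM in WT, and Cd3e, Ms4a1 and Nkg7 had no count. The endothelial list, with 1 of 6 markers tested and none passed, summed to 3.00 to 5.86 CPM in KO organoids and 3.17 to 4.68 CPM in WT, and Emcn had no count. KO library 6 stood apart for some of these markers, which were picked out after their values were seen: Lyz2 had 9.90 CPM there and 0 in the other 7 libraries, and Pecam1 (0.413 CPM), Cdh5 (0.619 CPM), Kdr (0.289 CPM) and Tek (0.351 CPM) had their highest level there. Without KO library 6, 2 sterol genes were higher and 5 lower, as with it, but Fdft1 passed and Cyp51 did not.

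All 27 sterol genes passed the low-count filter. Insig1, Pmvk, Acat2, Fdps and Cyp51 fell in KO (5 of 27, 18.5%), Hsd17b7 and Scap rose (2 of 27, 7.41%), and 20 did not pass the test. Among all tested genes 8.26% fell and 7.63% rose, so the share that rose was near the background. The median log2 fold change of the 27 genes was -0.08, against -0.0012 for all tested genes. Of the 27 genes 22 were below 0, against 7525 of all 14945 tested genes. Every KO library lay below every WT library for 7 of the genes, against 10.3% of all tested genes, and above every WT library for 1 gene, against 9.91%. The remaining 19 genes overlapped between the genotypes.

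Together the 27 genes took 0.632% ± 0.00716 of all counts in KO libraries and 0.680% ± 0.00765 in WT libraries (SD, n = 4 each). The KO libraries had 0.625%, 0.637%, 0.627% and 0.640%, against 0.686%, 0.670%, 0.687% and 0.678% in the WT libraries. The genotypes did not overlap in this sum. In bulk organoids, fewer cells of a type and less RNA per cell cannot be told apart.

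**Figure D1:**
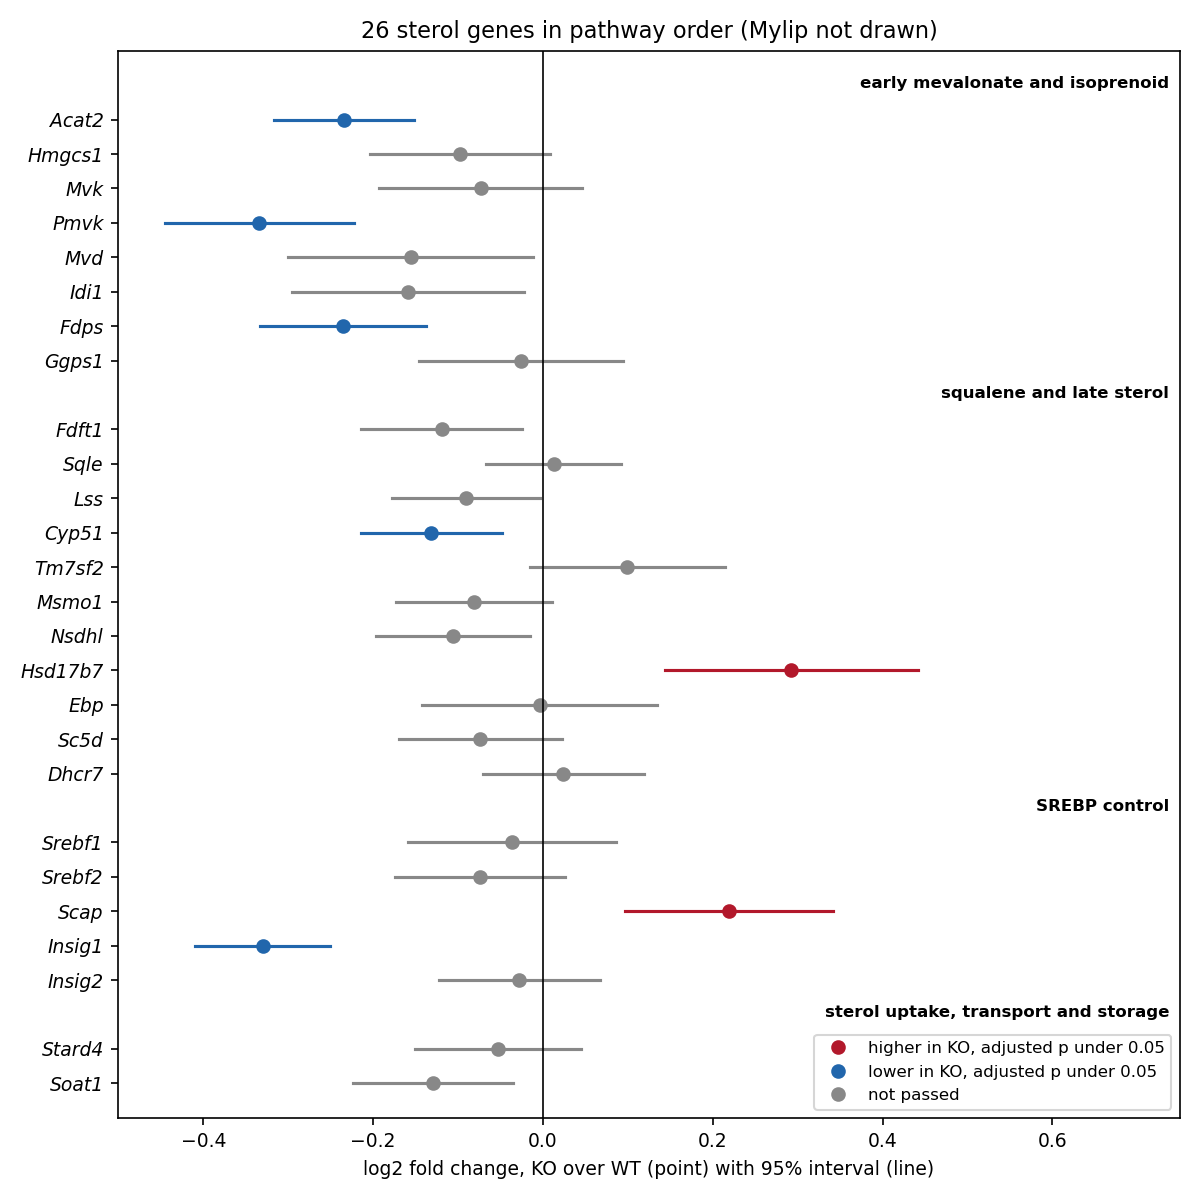
Fitted log2 fold change, KO over WT, of 26 sterol genes in pathway order, with the 95% interval of edgeR's fit as a line and colours for genes past the adjusted p of 0.05; Mylip, at under 1 CPM, is not drawn. The points of the early steps all lie left of 0, with Pmvk at -0.33, and Hsd17b7 (0.29) and Scap (0.22) lie farthest to the right.

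Of the 8 early mevalonate and isoprenoid genes, Acat2, Pmvk and Fdps fell in KO (37.5%, against 8.26% of all tested genes). None rose, against 7.63% of all tested genes, and 5 did not pass the test. The median log2 fold change of the 8 genes was -0.16, and all 8 fitted values were below 0, from -0.33 (Pmvk) to -0.03 (Ggps1, which was at 0.02 without WT library 15). Of all 14945 tested genes, 7525 were below 0. The summed level of the 8 early genes was 1826 to 1943 CPM in KO organoids and 2039 to 2199 CPM in WT, with no overlap between the genotypes.

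Acat2 encodes the cytosolic acetoacetyl-CoA thiolase that joins acetyl-CoA units at the entry of the pathway (NCBI Gene 110460, chr17:12943042-12960725). Its level was 131.7, 137.2, 140.3 and 133.6 CPM in KO libraries 5 to 8, against 162.8, 158.3, 160.5 and 157.1 CPM in WT libraries 13 to 16. All KO libraries were below all WT libraries, and the spread within each genotype was small. The fitted log2 fold change was -0.23 ± 0.038 (SE), and the adjusted p from edgeR was 0.00105. Acat3, a paralog whose transcript matched that of Acat2 at 97.7% over 1477 bases, averaged 20.4 CPM in KO organoids and 24.0 CPM in WT and had a log2 fold change of -0.23 (edgeR adjusted p = 0.0199). Tcp1, which matched over 445 bases at 98.7%, averaged 349 CPM in KO organoids and 380 CPM in WT (log2 fold change -0.12, edgeR adjusted p = 0.0599). Acat3 and Tcp1 were looked at for their sequence match and lie outside the rule for named genes. Reads shared between such copies could have been split by the authors' counting. With the counts of Acat3, but not those of Tcp1, added to Acat2 the log2 fold change was -0.23 (edgeR adjusted p = 0.000961). Because Acat3 had nearly the same fold change at a lower level, this sum could hardly differ. It does not show whether reads were misassigned.

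Hmgcs1, the synthase that makes HMG-CoA, was the most abundant early gene by count, at 824 ± 30.2 CPM in KO organoids and 881 ± 63.1 CPM in WT (SD, n = 4 each), and its fitted log2 fold change of -0.10 did not pass (edgeR adjusted p = 0.216). Mvk, the mevalonate kinase, was also not past the threshold, at 30.9 ± 1.48 CPM in KO organoids and 32.5 ± 1.72 CPM in WT.

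Pmvk, the kinase that acts on phosphomevalonate (NCBI Gene 68603, chr3:89454541-89469014), had the lowest fitted fold change among the sterol genes that passed, next to Insig1. Its level was 73.3, 83.3, 74.5 and 76.1 CPM in KO libraries 5 to 8, against 95.2, 94.7, 93.6 and 103.8 CPM in WT libraries 13 to 16. The genotypes did not overlap, library 6 was the highest in KO and library 16 stood above the other WT libraries. On the log2 scale the fold change was -0.33 ± 0.052 (SE), and the adjusted p from edgeR was 0.000752. Mvd, the decarboxylase of the next step, had 114, 123, 114 and 123 CPM in KO against 129, 132, 115 and 151 CPM in WT. Its WT libraries were the more spread, with library 15 at the KO level and library 16 far above it, and its log2 fold change of -0.16 did not pass (edgeR adjusted p = 0.141, and 0.019 without WT library 15). Mvd passed in only 1 of 15 alternatives, and without WT library 16 its log2 fold change was -0.085 (edgeR adjusted p = 0.359).

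Idi1, the isomerase that interconverts the isoprenoid building blocks, had 297, 310, 317 and 324 CPM in KO against 359, 315, 397 and 323 CPM in WT. Its WT libraries were spread, with libraries 14 and 16 inside the KO range and library 15 far above it, and its log2 fold change of -0.16 did not pass (edgeR adjusted p = 0.114, and 0.0382 without WT library 14). Idi1 passed in only 1 of 15 alternatives, and without WT library 15 its log2 fold change was -0.09 (edgeR adjusted p = 0.224).

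Fdps, the farnesyl diphosphate synthase at the branch point (NCBI Gene 110196, chr3:89093588-89101967), had 332.5, 347.6, 334.4 and 348.8 CPM in KO libraries 5 to 8, against 399.5, 432.7, 373.3 and 399.3 CPM in WT libraries 13 to 16. The genotypes did not overlap, and the WT libraries were spread more widely than the KO libraries. This gave a log2 fold change of -0.24 ± 0.045 (SE), and the adjusted p from edgeR was 0.00327. Of 5 processed pseudogenes close to its sequence the most abundant, Gm3571, averaged 2.38 CPM in KO organoids and 2.87 CPM in WT, and with all near copies added the log2 fold change was -0.24 (edgeR adjusted p = 0.00359). Copies counted at such low levels could hardly move the value. Another annotated transcript unit, Gm43738, shares 1124 exon bases on the same strand (26.7% of the exon bases of Fdps) and was not analysed here. Ggps1, which extends farnesyl to geranylgeranyl diphosphate, did not pass, at 53.1 ± 1.45 CPM in KO organoids and 54.1 ± 4.15 CPM in WT (SD, n = 4 each), and the 95% interval of its log2 fold change ran from -0.15 to 0.09.

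**Figure D2:**
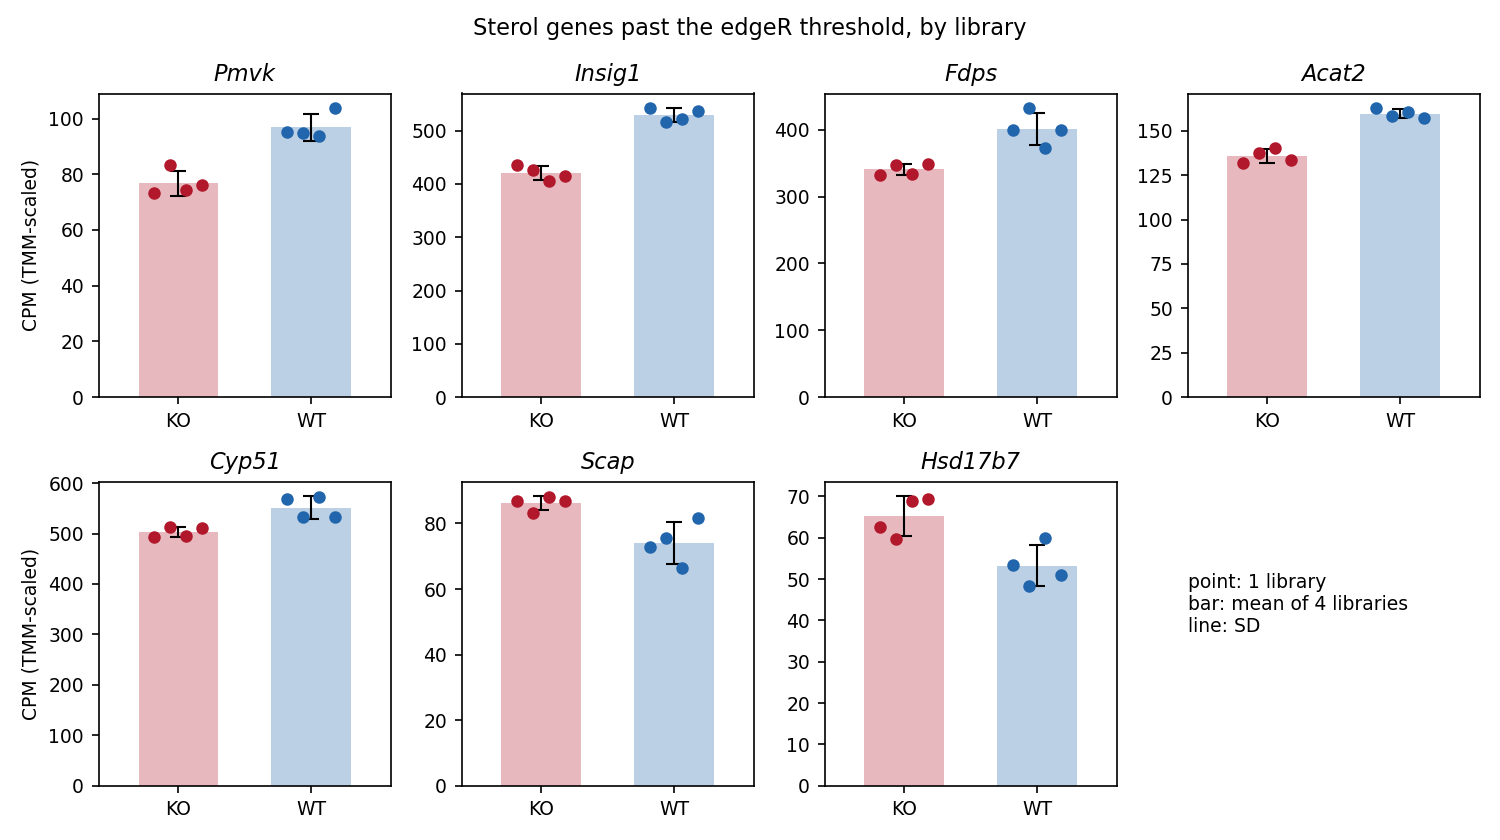
Level in CPM of the 7 sterol genes past edgeR's threshold in each library, with KO on the left and WT on the right of each panel, bars for the mean and lines for the SD of 4 libraries; each axis starts at 0. Pmvk, Insig1, Fdps, Acat2 and Cyp51 do not overlap between genotypes, and for Hsd17b7 the lowest KO library (59.6) lies just under the highest WT library (59.9).

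Of the 11 genes from squalene to cholesterol, Cyp51 fell, Hsd17b7 rose and 9 did not pass. These shares, 9.09% in each direction, are near those of all tested genes (8.26% lower, 7.63% higher). Their median log2 fold change was -0.07, with 7 fitted values below 0 and 4 above. Their summed level was 2415 to 2507 CPM in KO organoids and 2527 to 2620 CPM in WT, which also did not overlap.

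Cyp51, the lanosterol demethylase (NCBI Gene 13121, chr5:4080674-4104697), had 493.6, 512.9, 495.6 and 511.8 CPM in KO libraries 5 to 8, against 567.8, 533.1, 573.2 and 532.1 CPM in WT libraries 13 to 16. The genotypes did not overlap, but WT libraries 14 and 16 lay only a little above the highest KO library. edgeR gave a log2 fold change of -0.13 ± 0.038 (SE), and the adjusted p from edgeR was 0.0335. The call held without WT library 14, 15 or 16 (edgeR adjusted p up to 0.0476). It ended without KO library 5 (edgeR adjusted p = 0.108), 6 (0.0526), 7 (0.0999) or 8 (0.0729), without WT library 13 (0.1) and without a low-count filter (0.0586). Cyp51 shares 166 exon bases (3.76%) with Akap9 on the opposite strand, whose log2 fold change was 0.14 (edgeR adjusted p = 0.212), and no source used here states whether the authors counted by strand.

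Hsd17b7 encodes the ketosteroid reductase that completes removal of the methyl groups from lanosterol, and also reduces estrone (NCBI Gene 15490, chr1:169949535-169969242). Its level was 62.6, 59.6, 69.0 and 69.5 CPM in KO libraries 5 to 8, against 53.5, 48.3, 59.9 and 51.1 CPM in WT libraries 13 to 16. KO library 6 and WT library 15 met, and the other KO libraries lay above all WT libraries. The fitted change was, on the log2 scale, 0.29 ± 0.069 (SE), and the adjusted p from edgeR was 0.0114. It was the only enzyme of the module that rose: Msmo1 and Nsdhl, which act with it in the same demethylation complex, had log2 fold changes of -0.08 and -0.11 and did not pass (edgeR adjusted p = 0.232 and 0.112). A test of the difference between these genes was not made.

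Nsdhl, the decarboxylating dehydrogenase of that complex, had 142, 144, 139 and 134 CPM in KO against 158, 150, 147 and 146 CPM in WT. All KO libraries were below all WT libraries, by a margin smaller than the spread within either genotype. Msmo1, the methyl sterol oxidase, averaged 529 ± 11.6 CPM in KO organoids and 560 ± 30.2 CPM in WT (SD, n = 4 each).

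Fdft1, the squalene synthase that commits farnesyl diphosphate to sterols, had 277, 298, 266 and 275 CPM in KO against 297, 313, 291 and 312 CPM in WT. KO library 6 reached into the WT range, and the log2 fold change of -0.12 did not pass (edgeR adjusted p = 0.0873, and 0.0398 without that library). The gene passed in 2 of 15 alternatives, and without KO library 7 its adjusted p from edgeR was 0.245. Fdft1 shares 774 exon bases (18.3%) with Ctsb on the opposite strand, at 464 CPM in KO organoids and 460 CPM in WT. Sqle, the squalene epoxidase and a rate-controlling step of the pathway, did not pass either, at 345 ± 10.9 CPM in KO organoids and 342 ± 5.40 CPM in WT, with a 95% interval of -0.07 to 0.09 for its log2 fold change. Lss, which closes squalene epoxide to lanosterol, had a log2 fold change of -0.09 that did not pass (edgeR adjusted p = 0.16).

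Of the late enzymes after lanosterol demethylation, the sterol reductase Tm7sf2 averaged 44.7 ± 2.41 CPM in KO organoids and 41.7 ± 1.94 CPM in WT, and the sterol isomerase Ebp 43.9 ± 0.958 CPM in KO organoids and 44.0 ± 4.49 CPM in WT (SD, n = 4 each). The desaturase Sc5d averaged 152 ± 4.86 CPM in KO organoids and 160 ± 7.80 CPM in WT, and the last reductase of the pathway, Dhcr7, 127 ± 1.80 CPM in KO organoids and 125 ± 6.46 CPM in WT. The genotypes overlapped for all 4 and none passed the test. The narrowest interval among them was that of Dhcr7, from -0.07 to 0.12 on the log2 scale.

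**Figure D3:**
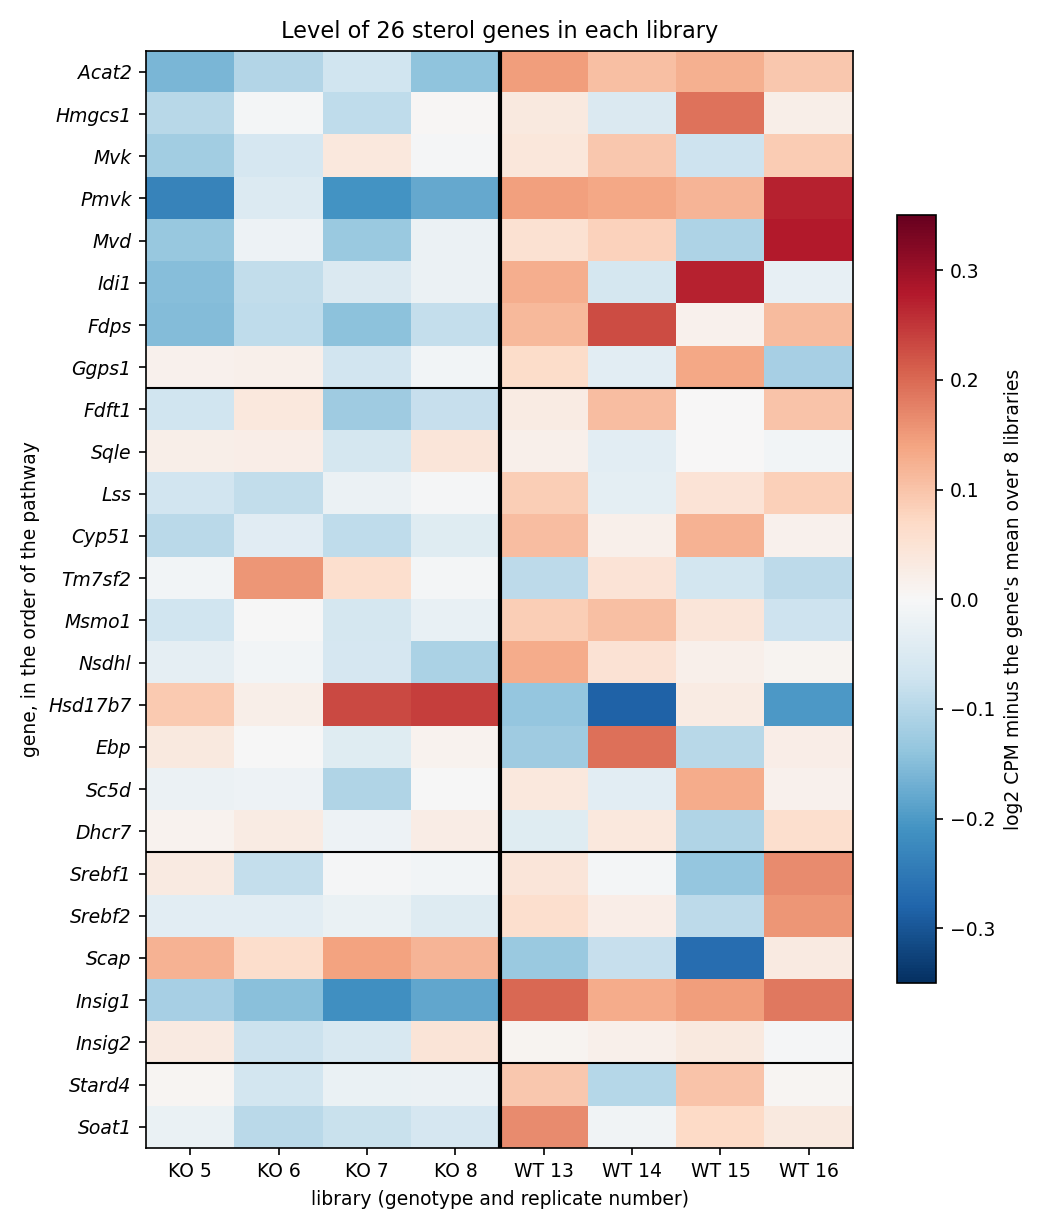
log2 CPM of each gene in each library, minus the gene's mean over the 8 libraries, with KO libraries left of the thick line and WT libraries right of it, genes in pathway order and Mylip left out. Acat2, Pmvk, Fdps and Insig1 are below their mean in every KO library and above it in every WT library, and WT libraries 15 and 16 differ from each other for Mvd, Idi1, Srebf1, Srebf2 and Scap.

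Among the 5 genes of SREBP control, Insig1 fell, Scap rose and both SREBP genes and Insig2 did not pass the test. At 1 of 5 genes each share was 20%, against 8.26% lower and 7.63% higher among all tested genes. The 5 genes summed to 1277 to 1306 CPM in KO organoids and 1336 to 1496 CPM in WT, again without overlap. This sum does not show a shift of the group. Insig1 alone, at a mean of 421 CPM in KO and 529 CPM in WT, was lower in every KO library. Scap went the other way, and the other 3 genes overlapped between genotypes. Insig1 had the smallest adjusted p of the module. Insig1 (NCBI Gene 231070, chr5:28071412-28078662) had 435.6, 426.4, 406.4 and 415.6 CPM in KO libraries 5 to 8, against 542.5, 515.9, 521.8 and 536.6 CPM in WT libraries 13 to 16. The gap between the genotypes was wider than the whole range of either. Between genotypes the fitted log2 fold change was -0.33 ± 0.037 (SE), and the adjusted p from edgeR was 7.26e-05. Insig2, which holds the SCAP-SREBP complex in the same way but is not induced by SREBP, had 67.7, 62.8, 63.6 and 68.3 CPM in KO against 66.6, 67.0, 67.8 and 66.0 CPM in WT. Its KO libraries spread around the WT libraries, and the 95% interval of its log2 fold change was -0.12 to 0.07.

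Scap encodes the escort protein of the SREBPs (NCBI Gene 235623, chr9:110333288-110384949). It had 86.8, 83.3, 88.1 and 86.7 CPM in KO libraries 5 to 8, against 72.9, 75.5, 66.4 and 81.6 CPM in WT libraries 13 to 16. All KO libraries were above all WT libraries, the KO libraries were close together and WT library 16 was close below them. The log2 fold change came to 0.22 ± 0.057 (SE), and the adjusted p from edgeR was 0.0186. This call ended without KO library 5 (edgeR adjusted p = 0.0535), 7 (0.06) or 8 (0.0578) and without WT library 13 (0.0573). Scap shares 985 exon bases (13.2%) with 5830462I19Rik on the opposite strand, which was not analysed here.

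Srebf2, the SREBP gene that mainly drives cholesterol synthesis, had 590, 590, 596 and 587 CPM in KO against 631, 616, 568 and 674 CPM in WT. The KO libraries were almost equal, and WT library 15 was below them while the other WT libraries were above. Its log2 fold change of -0.07 did not pass (edgeR adjusted p = 0.324, and 0.045 without WT library 15). Srebf2 passed in only 1 of 15 alternatives, across which its log2 fold change ran from -0.12 to -0.03. Srebf1, which mainly drives fatty acid synthesis, averaged 121 ± 4.05 CPM in KO organoids and 125 ± 10.7 CPM in WT (SD, n = 4 each) and overlapped between genotypes.

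Ratios of counts within a library, which do not depend on scaling, describe the balance of these regulators and were not tested. Insig1 over Insig2 was 6.44, 6.79, 6.39 and 6.09 in KO libraries 5 to 8, against 8.15, 7.70, 7.70 and 8.13 in WT libraries 13 to 16. Scap over Insig1 was 0.205 ± 0.0096 in KO and 0.140 ± 0.0113 in WT (SD, n = 4 each), ranging from 0.195 to 0.217 in KO and from 0.127 to 0.152 in WT. Neither ratio overlapped between genotypes. For Scap over Insig1 this had to follow, because every KO library was above every WT library for Scap and below for Insig1. Insig1 over Insig2 carries the fall of Insig1 over a gene that did not pass. Both ratios therefore restate the values of the single genes and add no separate result. Srebf2 over Srebf1 did overlap, at 4.87 ± 0.164 in KO and 5.00 ± 0.0796 in WT (SD, n = 4 each).

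Of the 3 genes of sterol uptake, transport and storage, none passed. Soat1, which esterifies cholesterol for storage, had 180, 172, 174 and 176 CPM in KO against 206, 182, 192 and 188 CPM in WT. All KO libraries were below all WT libraries, with WT library 14 close above KO library 5. The log2 fold change came to -0.13 ± 0.044 (SE), and the adjusted p from edgeR was 0.0607, and it passed with the DESeq2 Wald test (adjusted p = 0.0345) and with edgeR without WT library 14 (adjusted p = 0.0326). These were the only 2 of 15 alternatives in which Soat1 passed, and its log2 fold change ran from -0.15 to -0.09 across them all. Stard4, a carrier of free cholesterol between membranes, averaged 502 ± 10.2 CPM in KO organoids and 520 ± 33.2 CPM in WT (SD, n = 4 each). Mylip, the ubiquitin ligase that marks lipoprotein receptors for degradation, was close to the limit of detection, with 0, 11, 4 and 13 counts in KO against 9, 12, 16 and 7 counts in WT. A count of 0 in KO library 5 allows up to 3 counts, or 0.0710 CPM, and such limits cover counting error only.

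Levels between genes were compared by the authors' FPKM, which is scaled for transcript length. In KO the highest mean was that of Msmo1 (248 ± 4.86 FPKM), followed by Fdps (224 ± 6.51), Hmgcs1 (204 ± 7.76) and Insig1 (137 ± 3.34). In WT Fdps (264 ± 14.3 FPKM) and Msmo1 (263 ± 17.2) were within their SDs of each other at the top, and Hmgcs1 (218 ± 20) and Insig1 (173 ± 4.28) followed (SD, n = 4 each). At the low end, Hsd17b7 averaged 12.3 ± 1.04 FPKM in KO and 10.1 ± 1.12 FPKM in WT. Ggps1 averaged 9.65 ± 0.370 FPKM in KO and 9.73 ± 0.889 FPKM in WT, and Mylip 0.0413 ± 0.0368 FPKM in KO and 0.0698 ± 0.0232 FPKM in WT. The enzymes of the pathway thus spanned a wide range of levels in both genotypes, and the order of the genes at the top and at the bottom was nearly the same.

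**Figure D4:**
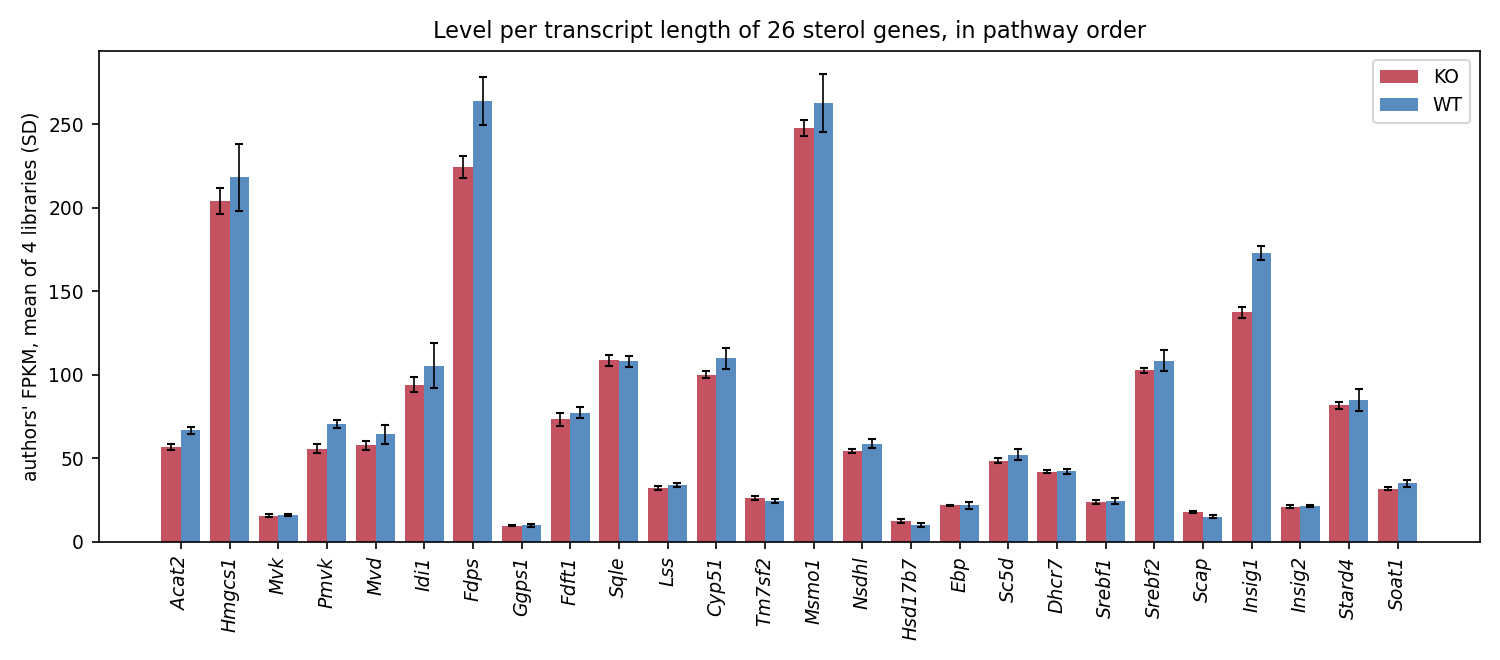
The authors' FPKM of 26 sterol genes in pathway order, KO bars left and WT bars right, as the mean of 4 libraries with the SD as a line. Msmo1, Fdps, Hmgcs1 and Insig1 stand above the others in both genotypes, and Ggps1 (9.65 FPKM in KO, 9.73 FPKM in WT) is the lowest gene drawn.

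No library was the highest or the lowest of its genotype for more than 10 of the 26 genes without Mylip, but the early genes varied together in KO. KO library 5 was the lowest KO library for 7 of the 8 early genes, and in no other KO library were more than 1 of them lowest. KO libraries 6 and 8 were each above the KO mean of log2 CPM for 6 of the 8. WT library 15 had the highest WT level of Idi1, Hmgcs1, Cyp51 and Sc5d and the lowest of Mvd, Srebf1, Srebf2 and Scap, while WT library 16 had the highest of Mvd, Pmvk, Srebf1, Srebf2 and Scap. Over the 26 genes without Mylip the median coefficient of variation was 3.02% in KO and 5.25% in WT, and the SD was greater in WT for 20 of 26 (76.9%). The same held for all 9141 tested genes at 10 CPM or more in both genotypes, with medians of 3.85% in KO and 6.10% in WT and a greater SD in WT for 75.7%.

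Genes that surround the pathway were described by 5 further lists, whose counts of 0 to 2 genes in a direction are to be read beside the 7.63% of all tested genes that rose and the 8.26% that fell. Of 11 SREBP proteases and endoplasmic reticulum degradation genes, 1 rose and 1 fell (median log2 fold change 0.05). Erlin2, part of a complex that presents proteins for degradation in the endoplasmic reticulum, averaged 155 ± 5.95 CPM in KO organoids and 137 ± 6.05 CPM in WT (log2 fold change 0.18, edgeR adjusted p = 0.0155). Rnf145, a sterol-regulated ubiquitin ligase, averaged 111 ± 4.44 CPM in KO organoids and 123 ± 4.08 CPM in WT (log2 fold change -0.14, edgeR adjusted p = 0.0457). Of 14 SREBP targets of fatty acid metabolism, 1 rose and 1 fell (median -0.04). Acss2, the acetyl-CoA synthetase of the cytosol, fell to 215 ± 2.72 CPM in KO, against 242 ± 9.16 CPM in WT (log2 fold change -0.17, edgeR adjusted p = 0.00972). Acacb, an acetyl-CoA carboxylase, averaged 7.01 ± 0.393 CPM in KO organoids and 5.32 ± 0.827 CPM in WT (log2 fold change 0.40, edgeR adjusted p = 0.0254).

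Of 8 LXR and sterol efflux genes 6 were tested and 1 rose (median log2 fold change 0.20): Smpdl3a, an LXR target that encodes a phosphodiesterase, averaged 65.2 ± 3.05 CPM in KO organoids and 53.3 ± 4.83 CPM in WT (log2 fold change 0.29, edgeR adjusted p = 0.00682). Of 12 genes of sterol transfer and release from lysosomes, 1 rose and 2 fell (median 0.02). Lipa, the lysosomal acid lipase that frees cholesterol from its esters, averaged 62.0 ± 2.64 CPM in KO organoids and 53.1 ± 2.48 CPM in WT (log2 fold change 0.22, edgeR adjusted p = 0.00792). Npc2, which hands cholesterol on inside lysosomes, averaged 325 ± 0.609 CPM in KO organoids and 358 ± 11.6 CPM in WT (log2 fold change -0.14, edgeR adjusted p = 0.0182). Vldlr, a lipoprotein receptor, averaged 76.4 ± 1.90 CPM in KO organoids and 86.2 ± 4.09 CPM in WT (log2 fold change -0.17, edgeR adjusted p = 0.0203). Of 14 genes that use isoprenoids (dolichol, ubiquinone and prenylation), 1 fell (median 0.02): Rabggtb, a subunit of the enzyme that prenylates Rab proteins, averaged 45.1 ± 1.45 CPM in KO organoids and 50.5 ± 2.92 CPM in WT (log2 fold change -0.16, edgeR adjusted p = 0.0465). Each ± is an SD of 4 libraries. The shares called ran from 0% to 16.7% of a list in a direction, the highest being 1 of 6 LXR genes higher and 2 of 12 transfer genes lower, and most were near the background. In edgeR's test the call of Erlin2 ended without KO library 5, 7 or 8 or WT library 13 (adjusted p up to 0.0626), that of Acacb without KO library 6, 7 or 8 or WT library 13 (up to 0.0688), and that of Vldlr without KO library 5, 6 or 8 or WT library 13 (up to 0.0789). The call of Npc2 ended without KO library 5, 7 or 8 (up to 0.0662 with edgeR). Rnf145 lost its call without KO library 6, 7 or 8, WT library 13, 15 or 16 or a low-count filter (up to 0.154 with edgeR). Rabggtb lost it with limma-voom, without a low-count filter, and without KO library 5, 7 or 8 or WT library 13, 15 or 16 (up to 0.142 with edgeR).

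**Figure D5:**
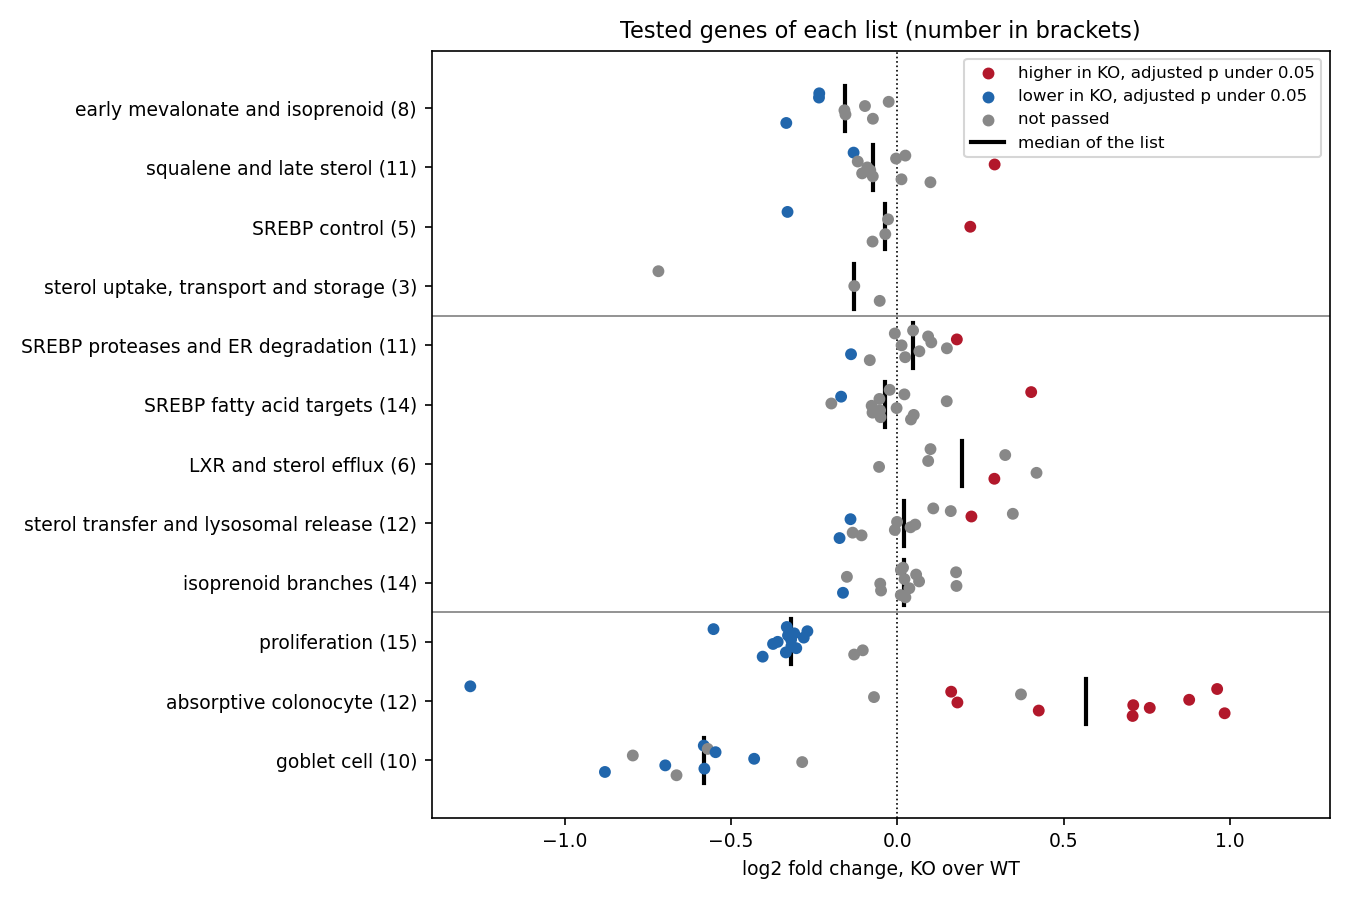
log2 fold change, KO over WT, of every tested gene of the 4 sterol groups (top), the 5 surrounding lists (middle) and 3 marker lists (bottom), with a bar at the median of each list and colours for genes past edgeR's adjusted p of 0.05. The early steps have a median of -0.16 beside -0.32 for proliferation genes, 0.57 for absorptive colonocyte genes and -0.58 for goblet cell genes.

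Markers of epithelial states moved with genotype beside these results, where 7.63% of all tested genes rose and 8.26% fell. Of 15 proliferation genes 13 fell and none rose (median log2 fold change -0.32), and their sum was 1390 to 1474 CPM in KO organoids and 1683 to 1890 CPM in WT. Of 12 absorptive colonocyte genes 9 rose and 1 fell (median 0.57), and their sum was 10270 to 10720 CPM in KO organoids and 7777 to 8602 CPM in WT. The gene that fell, Aqp8, is named after its values were seen. Its log2 fold change was -1.28 (edgeR adjusted p = 0.0314), with WT libraries spread from 6.59 to 37.2 CPM. Of 10 goblet cell genes 6 fell and none rose (median -0.58), and their sum was 119 to 149 CPM in KO organoids and 165 to 222 CPM in WT. No marker of these 3 lists was at 0 in all libraries, and their part in the sterol results was not tested.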

How the data were processed

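Stranded mRNA libraries of 4 KO and 4 WT organoid samples were each prepared from 1 µg of total RNA, per the labels' protocols. The authors deposited 1 raw count for each gene in each library. The submitters' processing notes name the build GRCm38 and the tools HTSeq, TopHat, TopHat2 and Bowtie2, without versions or roles. In every library more genes had a count of 2 (673 to 772) than of 1 (548 to 622). The authors' FPKM values, scaled for depth and transcript length, were described and not tested, and the authors' TPM values were not used. Groups came from the genotype labels.

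Counts that passed filterByExpr were scaled by TMM, then tested with edgeR 4.0.16 (quasi-likelihood) in R 4.3.3 on all 8 libraries, with Benjamini-Hochberg adjustment over all 14945 genes tested and a threshold of 0.05. The step was tested on simulated data. CPM is TMM-scaled, and SEs of log2 fold changes were derived from edgeR's F statistic. The limit set by 0 counts is 3 counts, which is 0.0606 to 0.0810 CPM by library. The chi-square per degree of freedom between 2 libraries over genes was 4.94 to 10.7 within KO, 11.1 to 24.9 within WT and 25.9 to 41.2 between genotypes, so no library repeats another. Coordinates are from RefSeq and exon overlaps from GENCODE, both of GRCm38. Python 3.11.15, pandas 2.3.3, numpy 2.4.6 and, for plots, matplotlib 3.10.9 were also used.

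Alternatives were DESeq2 size factors, upper-quartile scaling, scaling by library totals, limma-voom (limma 3.58.1), the Wald test of DESeq2 1.42.0, no low-count filter, at least 1 CPM in 4 libraries, each library left out in turn and, chosen after seeing the data, near copies of Acat2 and Fdps added to them. The sterol genes and all lists were chosen with earlier results of these data known. All 27 sterol genes are described, and of each surrounding list up to 4 genes with the smallest adjusted p under 0.05 are named. Some genes of the pathway are not reported here.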

Additional observations from a re-analysis of the deposited data

Results flagged for a closer look

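Across the 27 sterol genes in each genotype (54 sets of 4 libraries), 1 set had a library far from the others: Pmvk in WT, where library 16 had 103.8 CPM and the other WT libraries 93.6 to 95.2 CPM. The gap to the nearest library was 0.847 of the whole range, above Dixon's critical value for 4 libraries. Chance flags about 5% of sets. Without this library Pmvk stayed lower in KO, and the call held when any of the 8 libraries was left out.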

How the results depend on the processing

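Insig1, Pmvk, Acat2, Fdps and Hsd17b7 kept their direction and their side of the threshold under all 15 alternatives, with log2 fold changes of -0.35 to -0.31, -0.37 to -0.30, -0.25 to -0.22, -0.27 to -0.20 and 0.25 to 0.36 in that order. The highest adjusted p among them was 0.0473, for Hsd17b7. Of 403 pairs of a sterol gene and an alternative, 379 kept direction and side, 10 lost the call, 8 gained it and 6 changed sign, none of them a called value. With libraries left out, the log2 fold change ran from -0.065 to 0.017 for Ggps1 (above 0 without WT library 15), from -0.043 to 0.068 for Ebp (above 0 without KO library 7 or WT library 14 or 16), from -0.0057 to 0.049 for Dhcr7 (below 0 without WT library 15) and from -0.084 to 0.016 for Srebf1 (above 0 without WT library 16). With each library left out in turn, 1 to 2 sterol genes rose, where Scap lost its call without KO library 5, 7 or 8 or WT library 13, and 4 to 8 fell. The 8 came without WT library 15, which added Mvd (adjusted p = 0.019, edgeR), Fdft1 (0.0419) and Srebf2 (0.045), and leaving out WT library 16 added Msmo1 (0.0478, edgeR). Over all genes, leaving out libraries gave 696 to 1386 higher and 724 to 1404 lower genes, with 757 higher without KO library 5, 696 higher and 724 lower without KO library 8, and 808 lower without WT library 13. The cause was not tested, and such fits have fewer libraries. The median of the sterol genes stayed between -0.10 and -0.07, and no scaling moved the median of all genes by more than 0.1. No paired analysis was possible because the library numbers of KO and WT are not shared. Depth limited Mylip alone, which was under 1 CPM in every library, and alternatives without it in the test gave no value for it.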

Other observations

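Fdps and Pmvk, which both fell in KO, lie on chromosome 3 with 352574 bases between them, which was noticed after their values were seen. Of the 26 tested genes in that interval 6 fell and 1 rose, where among all tested genes 8.26% fell and 7.63% rose. The median of the 26 genes was 0.0044 on the log2 scale. The genes named here were chosen after their values were seen. The membrane mucin Muc1 averaged 19.4 CPM in KO and 38.5 CPM in WT (log2 fold change -0.98, edgeR adjusted p = 0.000759). Trim46 averaged 22.6 CPM in KO and 39.2 CPM in WT (log2 fold change -0.79, edgeR adjusted p = 1.85e-05). Cks1b, a partner of cyclin-dependent kinases, averaged 30.7 CPM in KO and 38.7 CPM in WT (log2 fold change -0.34, edgeR adjusted p = 0.0039). Scamp3 averaged 35.4 CPM in KO and 31.1 CPM in WT (log2 fold change 0.19, edgeR adjusted p = 0.0363).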
